A study of Mus musculus with 8 samples.

Results

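The genes described here are 45 mouse genes that encode components of elastic fibres, proteoglycans and a hyaluronan synthase, basement membrane proteins, and matricellular and other matrix glycoproteins. Their probes were found by symbol through the platform annotation of an Illumina bead array. The list itself was drawn up with earlier results of these data known. 39 of the 45 had at least 1 named probe, out of 16582 named genes, and 25 were tested, out of 7502 genes tested. The cells were primary vascular smooth muscle cells (VSMC) from male C57Bl6/J mice aged 8 weeks. They were infected with lentivirus carrying a short hairpin RNA against Uhrf1 (shUHRF1) or a scrambled one (shSCR), kept in puromycin for 2 days, and RNA was taken at day 5. Both groups therefore share the infection, the drug and the time, and each group holds 2 RNA samples hybridised on 2 arrays each, 8 arrays in all. The labels give neither the vessel bed, nor whether the samples came from separate cultures or animals, nor whether both shUHRF1 samples carry the same hairpin. All p-values then measure only the spread between these 4 RNA samples, which may be technical.

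Vascular smooth muscle cells lay down most of the matrix of the arterial wall. Elastin is deposited on microfibrils of fibrillin with the help of fibulins, and latent TGF-beta binding proteins (LTBPs) hold latent TGF-beta in the same fibres. Small leucine-rich proteoglycans bind collagen fibrils, laminins, nidogens and perlecan form the basement membrane around each cell, and matricellular proteins such as tenascin-C and thrombospondins act on cell adhesion more than on structure. UHRF1 binds hemimethylated CpG sites at replication and brings in the maintenance DNA methyltransferase.

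Values are normalized signals on a log2 scale, and a difference is the shUHRF1 mean minus the shSCR mean, given with its standard error (SE, n = 2 RNA samples per group). Uhrf1 signal was 11.51 and 11.53 on the arrays of shSCR sample 1 and 11.45 and 11.62 on those of sample 2, against 9.40 and 8.73 for shUHRF1 sample 1 and 8.39 and 8.58 for sample 2. All 4 shUHRF1 arrays lay below all 4 shSCR arrays, with differences from the shSCR mean of -2.46 in sample 1 and -3.04 in sample 2. The group difference was -2.75 (SE 0.23, adjusted p = 0.167 in limma), and over 18 other settings the adjusted p ran from 0.000776 to 0.696 and was under 0.05 in 6. The arrays detected from 45.1% to 48.2% of all probes. Of the smooth muscle markers, Acta2, Tagln, Tpm2, Cald1 and Smtn were detected on all 8 arrays, whereas Cnn1, Myh11 and Myocd were not detected on any.

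The 2 arrays of a sample matched each other less closely in the shUHRF1 samples than in the shSCR samples. Over the 25 tested matrix genes the median absolute gap between partner arrays was 0.17 (sample 1) and 0.096 (sample 2) for shSCR, and 0.42 (sample 1) and 0.33 (sample 2) for shUHRF1. Over all 7502 genes these gaps were 0.141 and 0.137 against 0.282 and 0.251. Across those genes, deviations from the 8-array mean were correlated between partner arrays at 0.572 and 0.633 in the shSCR samples, but at 0.242 in shUHRF1 sample 1 and at -0.000754 in shUHRF1 sample 2. Between the 2 different shUHRF1 samples, the first arrays correlated at 0.373, more than either pair of partners, and the second arrays at 0.000313. Between the 2 shSCR samples these values were 0.0345 and 0.127. Gaps of over 1 on the log2 scale occurred in 6 of the 25 matrix genes in shUHRF1 sample 1 and in 6 in shUHRF1 sample 2. They occurred in 0 in either shSCR sample. The share of all genes with such gaps was not counted. The cause of the poorer match between partner arrays was not tested. For each of the 25 tested matrix genes the difference is therefore also given from the first arrays alone and from the second arrays alone.

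Of the 25 tested matrix genes, 23 were detected on all 8 arrays, while Lamb1 entered the test through shSCR alone and Efemp1 through shUHRF1 alone. None of the 25 passed an adjusted p of 0.05 in limma, where the share over all genes tested was 0% (0 of 7502). 18 of the 25 (72%) had a higher mean signal in shUHRF1 than in shSCR, against 48.5% of all genes, and 7 had a lower one, against 51.5%. The median difference of the 25 was 0.22, beside -0.01 over all genes, and it was 0.40 without shUHRF1 sample 1, 0.37 without shUHRF1 sample 2 and 0.36 without shSCR sample 2. An unadjusted p under 0.05 with a higher signal was reached by 7 of the 25 (28%), against 7.9% of all genes, and with a lower signal by 0, against 6.62%. The 7 were Ltbp3, Ltbp4, Prelp, Lamb2, Sparc, Tnc and Mgp, with adjusted p from 0.287 to 0.328 in limma. Without shSCR sample 2 that count was 4. In 6 genes (Ltbp1, Ltbp3, Ltbp4, Lamb2, Sparc and Mgp) the lowest shUHRF1 array exceeded the highest shSCR array, which held for 8.17% of all genes, and in 0 did every shUHRF1 array lie below, against 8.45%. Both shUHRF1 sample means lay above both shSCR sample means in 9 of the 25, against 24% of all genes, and below them in 1, Lamb1, against 26.9%. The 25 also varied more between the controls: the median absolute gap between the 2 shSCR samples was 0.37, against 0.18 over all genes, and in 13 of the 25 it exceeded the difference between the groups, against 44.8% of all genes.

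**Figure D1:**
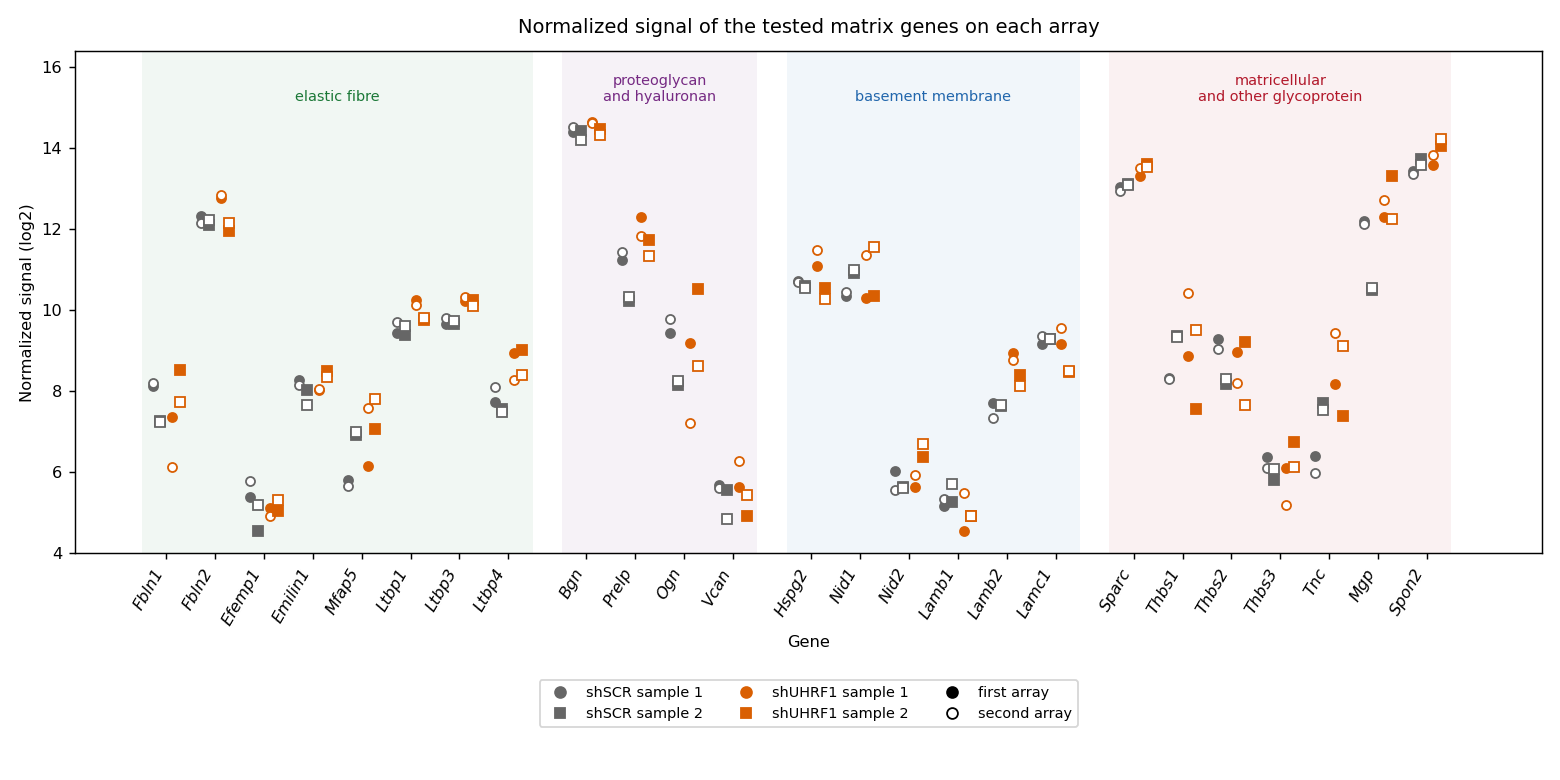
Normalized signal (log2, y axis) of each tested matrix gene (x axis, grouped by class) on all 8 arrays; grey symbols are shSCR, orange symbols shUHRF1, circles sample 1, squares sample 2, filled symbols first arrays and open symbols second arrays. The orange symbols of Ltbp3, Lamb2 and Sparc lie clear of the grey ones, while those of Ogn and Thbs1 spread over more than the whole grey range.

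**Figure D2:**
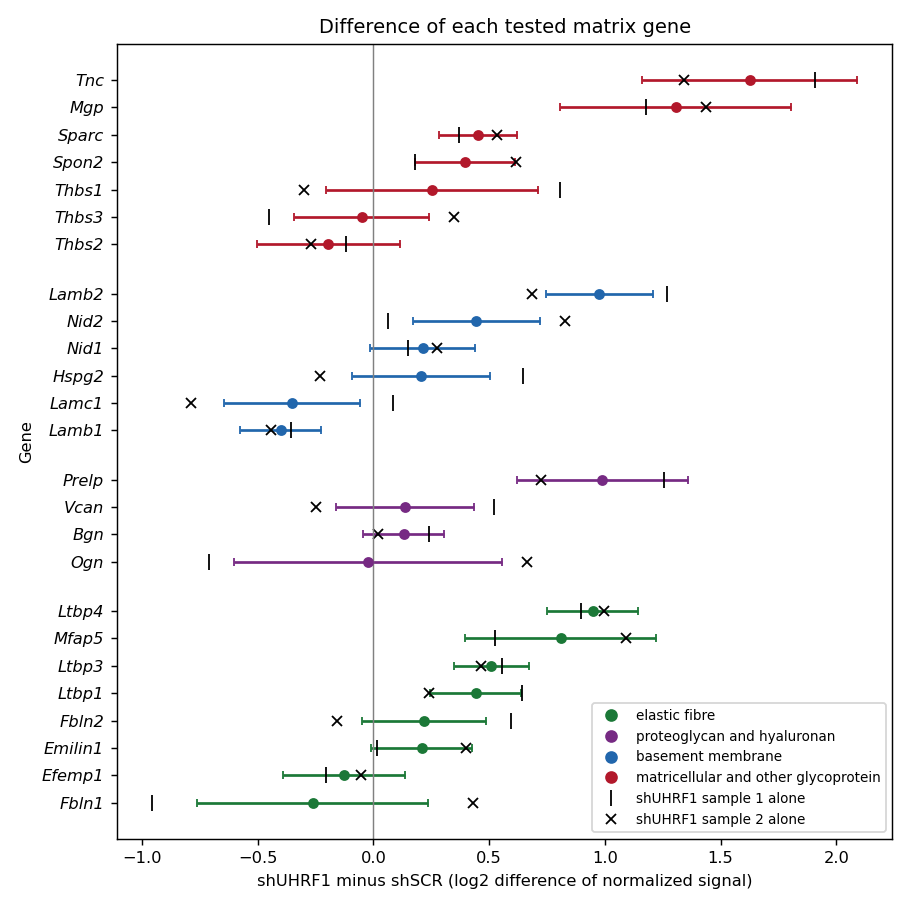
Difference of shUHRF1 minus shSCR (log2, x axis) for each tested matrix gene (y axis), with the SE as a horizontal bar, coloured by class; vertical ticks and crosses give shUHRF1 sample 1 and sample 2 alone against the shSCR mean. 18 of the 25 points lie to the right of 0, and the points run from -0.40 for Lamb1 to 1.62 for Tnc.

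Of the 7 genes with an unadjusted p under 0.05, 6 were matched to the RefSeq promoter table of build GRCm38.p6, all but Mgp, as were 29 of the 45 matrix genes. The 250 bases before the first listed start of these 6 are shown because CpG sites are what UHRF1 binds once they are hemimethylated, so that their number in each promoter can be read directly. They were picked after their values were seen. The windows lie at chr19:5740650-5740899 (plus strand) for Ltbp3, chr7:27337613-27337862 (minus strand) for Ltbp4, chr1:133921402-133921651 (minus strand) for Prelp, chr9:108479612-108479861 (plus strand) for Lamb2, chr11:55420081-55420330 (minus strand) for Sparc and chr4:64047016-64047265 (minus strand) for Tnc. Each is written 5′ to 3′ on the strand of its gene, with every CG in capitals:
Ltbp3: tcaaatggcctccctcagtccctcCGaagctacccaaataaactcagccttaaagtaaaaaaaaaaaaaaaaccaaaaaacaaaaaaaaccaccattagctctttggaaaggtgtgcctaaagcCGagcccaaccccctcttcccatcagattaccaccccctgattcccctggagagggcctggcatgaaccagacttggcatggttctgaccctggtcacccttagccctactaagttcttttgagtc
Ltbp4: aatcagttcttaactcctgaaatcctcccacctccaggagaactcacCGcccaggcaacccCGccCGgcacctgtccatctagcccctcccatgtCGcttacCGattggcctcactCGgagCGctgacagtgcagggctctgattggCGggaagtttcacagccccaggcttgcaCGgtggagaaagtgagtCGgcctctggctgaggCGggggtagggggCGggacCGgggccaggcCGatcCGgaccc
Prelp: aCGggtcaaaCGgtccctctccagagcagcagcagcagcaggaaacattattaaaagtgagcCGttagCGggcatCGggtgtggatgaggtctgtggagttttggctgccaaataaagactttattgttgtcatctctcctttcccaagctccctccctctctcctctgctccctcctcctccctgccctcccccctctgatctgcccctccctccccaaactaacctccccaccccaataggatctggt
Lamb2: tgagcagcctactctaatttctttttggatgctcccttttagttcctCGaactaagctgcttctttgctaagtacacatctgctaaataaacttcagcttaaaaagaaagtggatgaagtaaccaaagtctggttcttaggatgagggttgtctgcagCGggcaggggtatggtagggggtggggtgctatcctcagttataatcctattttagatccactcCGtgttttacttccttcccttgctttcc
Sparc: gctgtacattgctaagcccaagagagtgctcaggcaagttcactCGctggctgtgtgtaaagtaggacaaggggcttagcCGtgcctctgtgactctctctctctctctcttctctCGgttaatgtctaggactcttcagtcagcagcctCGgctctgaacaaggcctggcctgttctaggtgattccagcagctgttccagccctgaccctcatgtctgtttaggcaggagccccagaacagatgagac
Tnc: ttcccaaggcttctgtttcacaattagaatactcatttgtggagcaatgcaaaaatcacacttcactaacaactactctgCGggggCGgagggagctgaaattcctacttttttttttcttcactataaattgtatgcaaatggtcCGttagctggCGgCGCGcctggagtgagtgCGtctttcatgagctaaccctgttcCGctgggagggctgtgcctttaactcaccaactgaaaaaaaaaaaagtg
Ltbp3 held 2 CpG sites in this window, Lamb2 3, Sparc 4, Prelp 5, Tnc 8 and Ltbp4 15. Ltbp4 has 3 listed starts and Tnc 2, of which the first was used. Over the 19 tested matrix genes with a promoter in the table the median was 7 CpG sites (range 2 to 20), against 16 over 6187 tested genes and 6 over all 27025 promoters. No methylation was measured in these samples.

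Motifs were searched on both strands of the same 250 bases. CAGAC, the core of the Smad element, was in 9 of the 19 promoters (47.4%), against 42.1% of all promoters and 40.7% of those of tested genes. CATTCC, the element of TEAD factors, was in 2 (10.5%), against 12.6% and 10.2%. The palindrome GTCTAGAC of Smad factors, the AP-1 element TGAGTCA and the CArG box of serum response factor were in 0 of the 19, against 0.174%, 4.43% and 1.4% of all promoters and 0.178%, 2.91% and 1.16% of those of tested genes. None of these motifs contains another. A match is a description of the letters alone.

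Among elastic fibre genes, 15 were listed, 13 had a named probe and 8 were tested. 6 of the 8 were higher in shUHRF1 and 2 lower, with a median difference of 0.33 (0.54 without shUHRF1 sample 2) and a range from -0.26 to 0.95. All 3 LTBPs had their 4 shUHRF1 arrays above their 4 shSCR arrays, and Ltbp3 and Ltbp4 reached an unadjusted p under 0.05. Ltbp4, which binds latent TGF-beta and also assists elastic fibre assembly, had signals of 7.74 and 8.10 in shSCR sample 1, 7.56 and 7.49 in shSCR sample 2, 8.94 and 8.29 in shUHRF1 sample 1 and 9.03 and 8.40 in shUHRF1 sample 2. The first array was the higher one in both shUHRF1 samples, and the smallest distance between the groups was from 8.10 to 8.29. The difference was 0.95 (SE 0.20, adjusted p = 0.287 in limma), a fold of 1.93, and both samples gave nearly the same value, 0.90 and 1.00. The first arrays gave 1.34 and the second arrays 0.55. A second Ltbp4 probe gave 0.98, and the remaining, dim probe gave 0.25. The dim probe was detected on only 2 of the 4 shSCR arrays and entered the test through shUHRF1 alone.

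Ltbp3, a relative that also carries latent TGF-beta, had signals of 9.67 and 9.81 in shSCR sample 1, 9.67 and 9.73 in shSCR sample 2, 10.23 and 10.32 in shUHRF1 sample 1 and 10.25 and 10.12 in shUHRF1 sample 2. The arrays within each group lay close together and the groups did not overlap. The difference was 0.51 (SE 0.16, adjusted p = 0.294 in limma), a fold of 1.42, with 0.55 in sample 1 and 0.46 in sample 2. The first arrays gave 0.57 and the second 0.45, and a second probe gave 0.67. Ltbp1, which joins latent TGF-beta to fibrillin, had signals of 9.45 and 9.72 in shSCR sample 1, 9.39 and 9.63 in shSCR sample 2, 10.25 and 10.12 in shUHRF1 sample 1 and 9.77 and 9.81 in shUHRF1 sample 2. The groups did not overlap, but sample 2 stood only a little above the controls. The difference was 0.44 (SE 0.20, adjusted p = 0.361 in limma), with 0.64 in sample 1 and 0.24 in sample 2, and 0.59 from the first arrays and 0.29 from the second.

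Mfap5, a glycoprotein of microfibrils, had signals of 5.81 and 5.67 in shSCR sample 1, 6.93 and 6.99 in shSCR sample 2, 6.15 and 7.60 in shUHRF1 sample 1 and 7.07 and 7.82 in shUHRF1 sample 2. The first array of shUHRF1 sample 1 lay below both arrays of shSCR sample 2, so the groups overlapped. Its difference of 0.81 (SE 0.41, adjusted p = 0.398 in limma) was smaller than the gap of 1.23 between the shSCR samples, and it was 0.24 from the first arrays and 1.38 from the second. Leaving out shSCR sample 1 gave 0.20, and leaving out shSCR sample 2 gave 1.42.

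The fibulins had no common direction. Fbln1, a fibulin of elastic fibres and basement membranes, had signals of 8.13 and 8.21 in shSCR sample 1, 7.26 and 7.24 in shSCR sample 2, 7.38 and 6.13 in shUHRF1 sample 1 and 8.54 and 7.74 in shUHRF1 sample 2. shUHRF1 sample 1 lay 0.96 under the shSCR mean (a difference of -0.96) and sample 2 lay 0.43 above it, and the group difference was -0.26 (SE 0.50, adjusted p = 0.819 in limma), 0.26 from the first arrays and -0.79 from the second. Fbln2, which binds elastin and basement membrane proteins, had signals of 12.34 and 12.17 in shSCR sample 1, 12.12 and 12.24 in shSCR sample 2, 12.77 and 12.85 in shUHRF1 sample 1 and 11.96 and 12.16 in shUHRF1 sample 2. Sample 1 was above both controls and sample 2 below both, with differences of 0.60 and -0.16. The group difference was 0.22 (SE 0.27, adjusted p = 0.703 in limma), 0.14 from the first arrays and 0.30 from the second. A second Fbln2 probe gave 0.12, and the remaining one, detected on only 2 of the 4 shSCR arrays, gave 1.74.

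Emilin1, an elastic fibre glycoprotein, differed by 0.21 (SE 0.22), with 0.12 from the first arrays and 0.30 from the second. Efemp1, the gene of fibulin-3, differed by -0.13 (SE 0.26), with 0.11 and -0.37. Eln, the gene of tropoelastin, was not tested because it was detected on 1 shSCR array and 3 shUHRF1 arrays. Its signals were 4.80 and 5.12 in shSCR sample 1, 4.61 and 4.47 in shSCR sample 2, 5.87 and 4.83 in shUHRF1 sample 1 and 6.61 and 5.55 in shUHRF1 sample 2. The groups overlapped through the second array of shUHRF1 sample 1, and the signals were near background in shSCR, so the size of its difference of 0.97 is uncertain. Fbn2, Fbln5, Mfap2 and Mfap4 were not detected on any array, and Fbn1 and Efemp2 were not analysed here.

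Among proteoglycan and hyaluronan genes, 9 were listed, 8 had a named probe and 4 were tested. 3 were higher in shUHRF1 and 1 lower, with a median difference of 0.13. That median was -0.011 without shSCR sample 2, 0.52 without shSCR sample 1 and 0.61 from the first arrays alone. Prelp, the gene of prolargin, which links basement membranes to collagen, had signals of 11.24 and 11.44 in shSCR sample 1, 10.24 and 10.34 in shSCR sample 2, 12.30 and 11.83 in shUHRF1 sample 1 and 11.73 and 11.35 in shUHRF1 sample 2. Both shUHRF1 samples were above both shSCR samples, but the second array of shUHRF1 sample 2 lay below the second array of shSCR sample 1. The difference was 0.99 (SE 0.37, adjusted p = 0.321 in limma), a fold of 1.99, with 1.28 from the first arrays and 0.70 from the second, beside a gap of -1.06 from shSCR sample 1 to sample 2. Leaving out shSCR sample 1 gave 1.52, and leaving out shSCR sample 2 gave 0.46.

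Ogn, the gene of osteoglycin, had signals of 9.43 and 9.80 in shSCR sample 1, 8.17 and 8.26 in shSCR sample 2, 9.19 and 7.22 in shUHRF1 sample 1 and 10.53 and 8.62 in shUHRF1 sample 2. The second array was lower than the first by nearly the same amount in both shUHRF1 samples, with gaps of -1.98 and -1.91, while the shSCR gaps were 0.37 and 0.096. The group difference of -0.02 (SE 0.58, adjusted p = 0.985 in limma) is the mean of 1.06 from the first arrays and -1.11 from the second.

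Bgn, the gene of biglycan, had signals of 14.40 and 14.52 in shSCR sample 1, 14.43 and 14.21 in shSCR sample 2, 14.64 and 14.62 in shUHRF1 sample 1 and 14.48 and 14.34 in shUHRF1 sample 2. The groups overlapped, and the difference was 0.13 (SE 0.18, adjusted p = 0.732 in limma), 0.15 from the first arrays and 0.11 from the second. Vcan, the gene of the large proteoglycan versican, had signals of 5.68 and 5.62 in shSCR sample 1, 5.58 and 4.86 in shSCR sample 2, 5.64 and 6.27 in shUHRF1 sample 1 and 4.93 and 5.43 in shUHRF1 sample 2. The groups overlapped here too, with a difference of 0.14 (SE 0.30, adjusted p = 0.846 in limma), 0.52 in sample 1 and -0.25 in sample 2. It was -0.34 from the first arrays and 0.61 from the second. Fmod was detected on 2 shSCR and 3 shUHRF1 arrays and Lum on 1 shUHRF1 array, Aspn and Has2 were not detected on any, and Dcn was not analysed here.

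Among basement membrane genes, 8 were listed, 7 had a named probe and 6 were tested. 4 were higher in shUHRF1 and 2 lower, with a median difference of 0.21. That median was 0.021 without shUHRF1 sample 1, 0.10 without shSCR sample 1, 0.12 without shUHRF1 sample 2 and -0.075 from the first arrays alone. Of the 3 tested laminin chains, Lamb2 was higher in shUHRF1 and Lamb1 and Lamc1 were lower. Lamb1 entered the test through shSCR alone, and the shUHRF1 samples of Lamc1 lay on opposite sides of the shSCR mean. Lamb2, the beta-2 chain, had signals of 7.71 and 7.34 in shSCR sample 1, 7.63 and 7.67 in shSCR sample 2, 8.94 and 8.77 in shUHRF1 sample 1 and 8.42 and 8.13 in shUHRF1 sample 2. The groups did not overlap, and sample 1 was the higher of the shUHRF1 samples. The difference was 0.98 (SE 0.23, adjusted p = 0.287 in limma), a fold of 1.97, with 1.27 in sample 1 and 0.69 in sample 2. The first and second arrays gave 1.00 and 0.95.

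Lamb1, the beta-1 chain, had signals of 5.17 and 5.35 in shSCR sample 1, 5.27 and 5.73 in shSCR sample 2, 4.54 and 5.50 in shUHRF1 sample 1 and 4.94 and 4.93 in shUHRF1 sample 2. Both shUHRF1 samples lay below both shSCR samples, though 1 array of sample 1 was within the shSCR range. Because 1 shUHRF1 array did not detect Lamb1, it entered the test through shSCR alone, the group in which it was high. Its difference, given as a value alone, was -0.40 (SE 0.17), with -0.36 in sample 1 and -0.44 in sample 2. It was -0.48 from the first arrays and -0.32 from the second. Lamc1, the gamma-1 chain that most laminins share, had signals of 9.18 and 9.38 in shSCR sample 1, 9.29 and 9.29 in shSCR sample 2, 9.17 and 9.57 in shUHRF1 sample 1 and 8.49 and 8.51 in shUHRF1 sample 2. shUHRF1 sample 2 lay below every other array, and the mean of sample 1 lay above both controls. The group difference was -0.35 (SE 0.29, adjusted p = 0.581 in limma), with 0.083 in sample 1 and -0.79 in sample 2, and -0.41 from the first arrays and -0.30 from the second.

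The nidogens link laminin to collagen IV. Nid1 had signals of 10.36 and 10.46 in shSCR sample 1, 10.93 and 11.00 in shSCR sample 2, 10.30 and 11.38 in shUHRF1 sample 1 and 10.37 and 11.56 in shUHRF1 sample 2. Both second shUHRF1 arrays were above all shSCR arrays, while the first arrays were at or just under the arrays of shSCR sample 1. The difference was 0.21 (SE 0.23, adjusted p = 0.663 in limma), from -0.31 in the first arrays and 0.74 in the second. Leaving out shSCR sample 1 gave -0.067, and leaving out shSCR sample 2 gave 0.49. Nid2 had signals of 6.04 and 5.56 in shSCR sample 1, 5.65 and 5.62 in shSCR sample 2, 5.63 and 5.93 in shUHRF1 sample 1 and 6.38 and 6.71 in shUHRF1 sample 2. Only the arrays of sample 2 exceeded all control arrays, and the difference was 0.45 (SE 0.27, adjusted p = 0.460 in limma), with 0.062 in sample 1 alone and 0.83 in sample 2 alone. It was 0.16 from the first arrays and 0.73 from the second.

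Hspg2, the gene of perlecan, had signals of 10.72 and 10.71 in shSCR sample 1, 10.61 and 10.56 in shSCR sample 2, 11.10 and 11.48 in shUHRF1 sample 1 and 10.55 and 10.28 in shUHRF1 sample 2. Like Fbln2, it was above both controls in sample 1 and below both in sample 2, with differences of 0.64 and -0.23. The group difference was 0.21 (SE 0.30, adjusted p = 0.749 in limma), 0.16 from the first arrays and 0.25 from the second. Lama4 was detected on 1 shUHRF1 array, and Lama5 was not analysed here.

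Among matricellular and other glycoproteins, 13 were listed, 11 had a named probe and 7 were tested. 5 were higher in shUHRF1 and 2 lower, with a median difference of 0.40 and a range from -0.19 to 1.62. The shSCR samples differed most in this class, with a median absolute gap of 0.93. Tnc, the gene of tenascin-C, a protein of injured and remodelling vessels, had signals of 6.40 and 5.98 in shSCR sample 1, 7.72 and 7.53 in shSCR sample 2, 8.18 and 9.44 in shUHRF1 sample 1 and 7.39 and 9.11 in shUHRF1 sample 2. The groups overlapped, since the first array of shUHRF1 sample 2 lay below both arrays of shSCR sample 2 while both second shUHRF1 arrays lay far above. The difference of 1.62 (SE 0.46, adjusted p = 0.287 in limma), a fold of 3.08, was the highest of the 25. It was 0.73 from the first arrays and 2.52 from the second. Leaving out shSCR sample 1 gave 0.91, and leaving out shSCR sample 2 gave 2.34. A second tested probe gave 1.54.

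Mgp, the gene of matrix Gla protein, an inhibitor of vessel calcification, had signals of 12.20 and 12.15 in shSCR sample 1, 10.51 and 10.54 in shSCR sample 2, 12.32 and 12.74 in shUHRF1 sample 1 and 13.32 and 12.25 in shUHRF1 sample 2. All shUHRF1 arrays were above all shSCR arrays, but the lowest of them, 12.25, was close to the 12.20 of shSCR sample 1, and shSCR sample 2 stood far lower. The difference was 1.31 (SE 0.50, adjusted p = 0.328 in limma), a fold of 2.47, with 1.46 from the first arrays and 1.15 from the second, beside a gap of -1.65 from shSCR sample 1 to sample 2. Leaving out shSCR sample 1 gave 2.13, and leaving out shSCR sample 2 gave 0.48.

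Sparc, the gene of osteonectin, which binds collagen, had signals of 13.04 and 12.94 in shSCR sample 1, 13.13 and 13.09 in shSCR sample 2, 13.32 and 13.51 in shUHRF1 sample 1 and 13.61 and 13.55 in shUHRF1 sample 2. The groups did not overlap and all 4 samples were tight. The difference was 0.45 (SE 0.17, adjusted p = 0.321 in limma), a fold of 1.37, with 0.39 from the first arrays and 0.52 from the second, and a second probe gave 0.43. Spon2, the gene of spondin-2, had signals of 13.45 and 13.36 in shSCR sample 1, 13.74 and 13.60 in shSCR sample 2, 13.60 and 13.83 in shUHRF1 sample 1 and 14.06 and 14.24 in shUHRF1 sample 2. Sample 1 overlapped shSCR sample 2 and sample 2 lay above all controls, and the difference was 0.40 (SE 0.22, adjusted p = 0.412 in limma), with 0.18 in sample 1 and 0.62 in sample 2. It was 0.23 from the first arrays and 0.56 from the second.

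The thrombospondins showed no common direction. Thbs1, which can activate latent TGF-beta, had signals of 8.34 and 8.31 in shSCR sample 1, 9.38 and 9.34 in shSCR sample 2, 8.88 and 10.42 in shUHRF1 sample 1 and 7.56 and 9.52 in shUHRF1 sample 2. The lowest and the highest of its 8 values were both on shUHRF1 arrays, with gaps between partner arrays of 1.54 and 1.96. The difference was 0.25 (SE 0.46, adjusted p = 0.809 in limma), from -0.64 in the first arrays and 1.15 in the second, and it was 0.81 in sample 1 and -0.30 in sample 2.

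Thbs3 had signals of 6.39 and 6.11 in shSCR sample 1, 5.82 and 6.07 in shSCR sample 2, 6.10 and 5.20 in shUHRF1 sample 1 and 6.76 and 6.14 in shUHRF1 sample 2. Sample 1 was below both controls and sample 2 above both, and the difference was -0.05 (SE 0.29, adjusted p = 0.944 in limma), 0.32 from the first arrays and -0.43 from the second. Its other tested probes gave 0.53 and 0.24, the opposite sign. The probe with 0.24 was detected on only 2 of the 4 shSCR arrays. It entered the test through shUHRF1 alone, so its difference is given as a value alone. Thbs2 differed by -0.19 (SE 0.31), a value that was 0.35 from the first arrays and -0.74 from the second. Tgfbi was detected on 1 array of each group, Postn, Sparcl1 and Comp were not detected on any, and Fn1 and Spp1 were not analysed here.

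Each shUHRF1 sample alone gave a median difference from the shSCR mean of 0.37 in sample 1 and 0.40 in sample 2 over the 25 genes. 19 of the 25 were above the shSCR mean in sample 1, against 50% of all genes, and 17 in sample 2, against 47.4%. 14 were above it in both samples, against 35.2% of all genes, 3 were below it in both, and 8 lay on opposite sides, against 27.1%. The elastic fibre genes had medians of 0.54 and 0.42 in samples 1 and 2, the proteoglycan and hyaluronan genes 0.38 and 0.34, the basement membrane genes 0.12 and 0.02, and the matricellular genes 0.37 and 0.54. With 1 sample on a side these differences have no replicate check, and both are taken from the same shSCR samples.

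**Figure D3:**
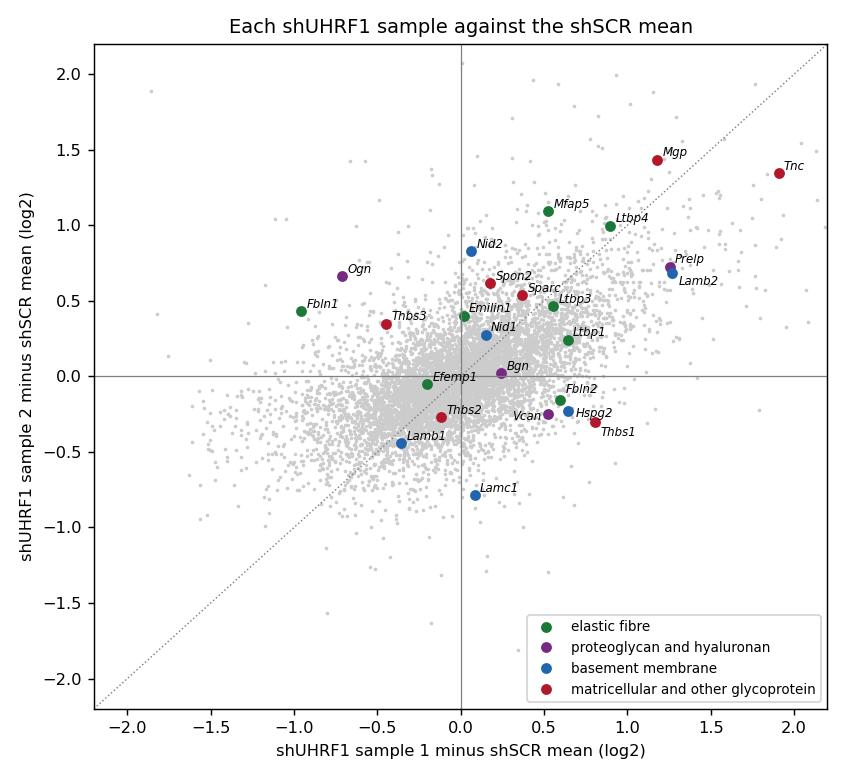
Difference of shUHRF1 sample 1 (x axis) and of shUHRF1 sample 2 (y axis) from the shSCR mean (log2) for the 25 tested matrix genes, coloured by class, over all tested genes in grey (13 of 7502 lie outside the axes); both axes share the same controls. 14 matrix genes lie in the upper right part, with Ltbp4, Mgp, Tnc and Prelp above 0.7 on both axes.

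The first arrays and the second arrays, each set compared within itself, gave the same sign in 17 of the 25 genes, against 70% of all genes. They gave opposite signs in 8, against 30%. Of the 17, 15 were higher and 2 lower, a split that was not counted over all genes. The genes with a lower signal on the second array than on the first in both shUHRF1 samples included Ogn, Fbln1, Thbs2 and Thbs3. Tnc, Thbs1, Nid1 and Mfap5 had a higher signal on the second array in both. In all, the gaps between partner arrays shared a sign in both shUHRF1 samples for 17 of the 25, against 66.7% of all genes. Which of the 2 arrays better represents the RNA was not tested.

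**Figure D4:**
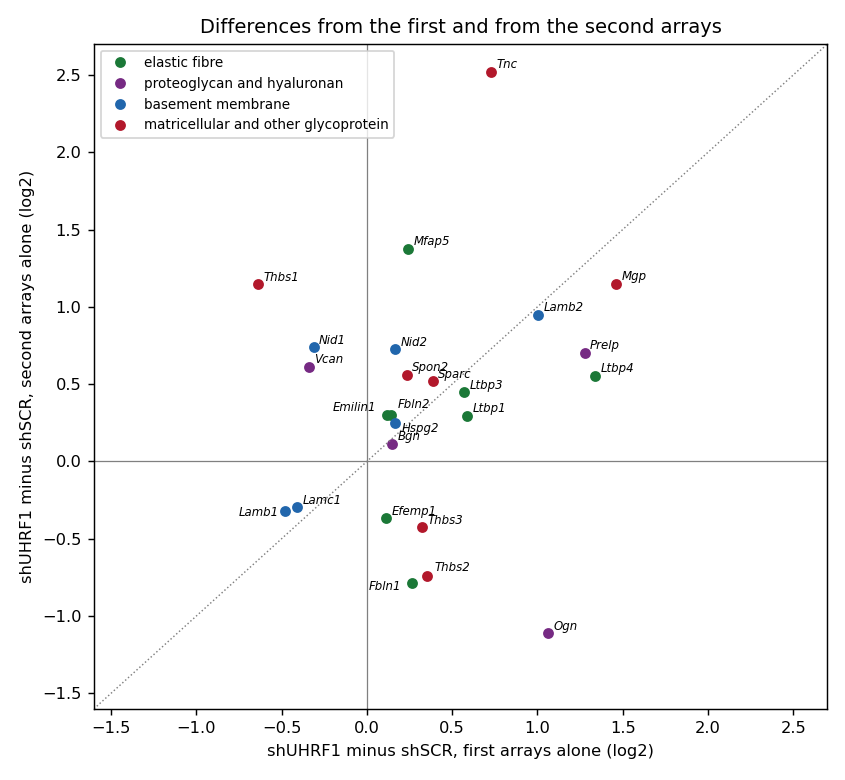
Difference of shUHRF1 minus shSCR (log2) from the first arrays alone (x axis) and from the second arrays alone (y axis) for the 25 tested matrix genes, coloured by class. Ltbp3, Lamb2 and Sparc lie near the diagonal, whereas Ogn (1.06 and -1.11) and Thbs1 (-0.64 and 1.15) lie on opposite sides of 0.

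Markers of cell types varied between the same arrays. The summed linear normalized signal of the 10 smooth muscle markers with a probe was 12795 and 22690 in shSCR samples 1 and 2 and 26701 and 23756 in shUHRF1 samples 1 and 2, of which Acta2 alone gave from 86.9% to 92.2%. Without Acta2 the sums were 1672 and 2089 in shSCR and 2076 and 2321 in shUHRF1. Marker by marker, 4 of the 5 tested smooth muscle markers were higher in shUHRF1 and 1 lower, against 48.5% of all genes higher. The largest difference was that of Tagln, 1.27 (SE 0.20), with all shUHRF1 arrays above all shSCR arrays. Of the 5 tested smooth muscle markers, 4 were higher on the second array in both shUHRF1 samples, and Smtn differed between the samples. The matrix genes higher on it in both were Tnc, Thbs1, Nid1, Mfap5, Fbln2, Lamc1, Nid2, Spon2 and Vcan. The sum of 9 fibroblast and adventitial markers was 2989 and 2848 in the shSCR samples and 3126 and 4112 in the shUHRF1 samples. Dpep1 was not detected on any array. Thy1 was by far the brightest, with a mean log2 signal of 11.39, beside 7.30 for Pi16, the next, so the sum mostly follows Thy1. Its signal was 11.28 in both shSCR samples and 11.33 and 11.67 in shUHRF1 samples 1 and 2. Marker by marker, 5 of the 6 tested ones were higher in shUHRF1 and 1 lower, against 48.5% of all genes higher. By sample, 3 were above the shSCR mean in shUHRF1 sample 1 and 6 in sample 2. Pi16 differed by 0.89 (SE 0.25). Scara5, which entered the test through shUHRF1 alone, differed by 1.14. Of the 6 tested fibroblast and adventitial markers, 5 were lower on the second array in both shUHRF1 samples, and Thy1 was higher on it in both. The matrix genes lower on it in both were Ogn, Fbln1, Ltbp4, Prelp, Lamb2, Bgn, Thbs2 and Thbs3. Over all genes, 66.7% had gaps that shared a sign in both shUHRF1 samples. The sum of 10 endothelial markers ranged from 1107 to 1250 in shSCR and from 1229 to 1484 in shUHRF1, with Cdh5, Emcn, Tie1 and Vwf not detected on any array. The sum of 6 macrophage and leukocyte markers ranged from 480 to 630 in shSCR and from 459 to 515 in shUHRF1, with Adgre1, Itgam and Ptprc not detected on any. Their part in the matrix results was not tested, and in bulk RNA more cells of a type and more RNA per cell cannot be told apart.

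Of 84 further matrix genes of the same 4 classes, 79 had a named probe and 37 were tested. 33 of the 37 were detected on all 8 arrays, and 4 entered the test through shUHRF1 alone. Of the 33, 29 were higher in shUHRF1, against 48.5% of all genes, and 4 lower, with a median difference of 0.30. 5 of the 33 had an unadjusted p under 0.05 with a higher signal, against 7.9% of all genes, 0 with a lower one, and 0 passed an adjusted p of 0.05 in limma. By sample, 31 of the 33 lay above the shSCR mean in sample 1 (median 0.49), against 50% of all genes, and 17 in sample 2 (median 0.020), against 47.4%. Over all 37, which include the 4 that entered through shUHRF1 alone, 32 were higher. That count was 20 without shUHRF1 sample 1 and 21 from the first arrays alone. The 5 were Loxl1 (0.64, SE 0.19), Sdc1 (0.66, SE 0.26), Agrn (1.01, SE 0.20), Ntn4 (0.68, SE 0.21) and Mxra8 (0.67, SE 0.18). Loxl1 is a lysyl oxidase that crosslinks elastin, Sdc1 a proteoglycan, and Agrn and Ntn4 are basement membrane genes. Samples 1 and 2 gave 0.52 and 0.76 for Loxl1, 1.01 and 0.31 for Sdc1, and 1.18 and 0.83 for Agrn. They gave 0.92 and 0.44 for Ntn4, and 0.83 and 0.50 for Mxra8, whose shUHRF1 and shSCR arrays overlapped. Podn (1.20, SE 0.30) and Svep1 (0.72, SE 0.25), each detected on 1 shSCR array, and Matn4 (0.74, SE 0.23), detected on 2, entered the test through the group in which they were high, so their differences are given as values alone.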

How the data were processed

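Primary VSMC RNA (2 shSCR and 2 shUHRF1 samples, 2 arrays each) was grouped by the shRNA in the labels. The deposited signal is each probe's average bead intensity, linear and not normalized between arrays, with a detection p-value, per the file headers, exported from GenomeStudio 2011.1 per the submitters' processing notes. 1 probe's detection entries in the second arrays were shifted. All deposited detection columns were read as detection p-values, and probes with a non-numeric entry or a detection p-value above 1 were left out. A second deposited table, for which lumi is named in the submitters' processing notes, holds the authors' processed values on a log2-like scale, median 7.86. Its transform is not stated, and it served as an alternative. Its deviations correlated at 0.951 to 0.964 with those used here over probes with a signal above 300. Of 25671 probes, 2 with unreadable entries were left out, and 23950 had 1 gene symbol in the platform annotation, 1719 none and 0 several. Entrez identifiers of 23934 probes matched RefSeq GRCm38.p6.

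Signals were corrected by normexp with the background taken from detection p-values (neqc, offset 16), quantile-normalized and log2-transformed in limma 3.58.1 (R 4.3.3). Probes with a detection p under 0.05 on all 4 arrays of a group were tested (10880 probes, 7502 genes), and a gene is given by its tested probe of highest mean signal. The 2 arrays of a sample were averaged. The test was limma (lmFit, eBayes) with Benjamini-Hochberg adjustment over all tested probes. It was tested on simulated data. With 2 samples a side, an exact permutation test cannot go below p = 0.333. The number of arrays limits the precision. Named with every array's value are Uhrf1 and those matrix genes with an unadjusted p under 0.05, with the 5 largest differences of their class, or on which probes or shUHRF1 samples disagree, plus Eln. Up to 3 further matrix genes per class are named. Members, lists and marker lists were chosen with earlier results of these data known. Alternatives were the normalization, background, offset, filter, probe rule, array handling, replicate block, prior and each sample left out.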

Additional observations from a re-analysis of the deposited data

How the results depend on the processing

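18 alternatives were run, 1 of them (array number as a replicate block with the RNA sample as a random block) chosen after seeing the data. The slide as a block was not run, since the headers name no slide. Of 607 values for 34 named genes, 565 kept their direction and side of the threshold, 11 passed it and 31 reversed. 23 genes kept 1 sign in all alternatives run. The cause was not tested for any value below. The number of RNA samples, 2 in each group, limits every statement.

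The titles number the samples 1 and 2 in both groups, while the descriptions number the shUHRF1 samples 3 and 4, and same-numbered samples by title deviated with a correlation of -0.15. The replicate block on that number moved the count of all genes with an adjusted p under 0.05 from 0 to 1, which was Uhrf1 (adjusted p = 0.0416 in limma). It was 1, again Uhrf1, with second arrays alone (0.0438), 1, again Uhrf1, with a trended robust prior (0.0337), 2 with the array number as a block, 3 with the RNA sample as a random block and 243 with 8 arrays as separate samples, which treats partner arrays as replicates. That last setting called 3 of the 25 matrix genes (Ltbp3, Ltbp4 and Lamb2) and 2 of the further matrix genes.

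Without a filter on dim probes, 1 matrix gene was lower at an unadjusted p under 0.05, 49 of 79 further matrix genes were higher, beside 32 of 37 with it, and the medians were 0.14 (all), 0.038 (matricellular), 0.083 (sample 1) and 0.24 (sample 2). From the first arrays alone, 21 of 37 further genes were higher, and the medians were 0.61 (proteoglycan), -0.075 (basement membrane) and 0.23 (sample 1). From the second arrays alone they were 0.49 (basement membrane), 0.56 (matricellular), 0.45 (all) and 0.50 (sample 1). The mean of all tested probes gave 0.52 for elastic fibre genes. That mean takes in the Fbln2 probe with a difference of 1.74. This probe was detected on only 2 of the 4 shSCR arrays and entered the test through shUHRF1 alone, as did the dim Ltbp4 probe. The authors' processed values gave 0.14 (basement membrane), 0.19 (sample 1) and 0.20 (sample 2). Median scaling gave 0.29 and 0.48 and no background correction 0.24 and 0.30 for samples 1 and 2, and detection on all 8 arrays gave 0.52 for sample 1.

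With each RNA sample left out in turn, a lone sample is assumed to vary like the others. The count higher at an unadjusted p under 0.05 then ran from 4 to 8, the count lower from 0 to 1, and the further genes higher from 20 to 34. The medians ran from 0.30 to 0.54 (elastic fibre), -0.011 to 0.52 (proteoglycan), 0.021 to 0.25 (basement membrane), 0.27 to 0.54 (matricellular), 0.27 to 0.40 (all), 0.31 to 0.37 (sample 1) and 0.21 to 0.48 (sample 2). Differences that reversed ran from -0.96 to 0.43 for Fbln1, -0.16 to 0.60 for Fbln2, -0.49 to 0.24 for Efemp1, -0.73 to 0.68 for Ogn, -0.25 to 0.52 for Vcan, -0.23 to 0.64 for Hspg2, -0.067 to 0.49 for Nid1, -0.79 to 0.083 for Lamc1, -0.30 to 0.81 for Thbs1, -0.66 to 0.27 for Thbs2 and -0.45 to 0.35 for Thbs3.

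From the first arrays alone the differences of Fbln1 (0.26), Efemp1 (0.11), Ogn (1.06), Vcan (-0.34), Nid1 (-0.31), Thbs1 (-0.64), Thbs2 (0.35) and Thbs3 (0.32) reversed. Ogn was 0.019 with median scaling, 0.025 with no background correction and 0.059 with the authors' values. Thbs3 was 0.044, 0.000218 and 0.00344 under the same settings, and 0.24 with the mean of its probes. That mean takes in the Thbs3 probe that entered the test through shUHRF1 alone.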
